A study of Mus musculus with 38 samples.

Results

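The 10 genes Nfkb1, Nfkb2, Rel, Relb, Nfkbia, Nfkbie, Nfkbiz, Bcl3, Tnfaip3 and Tnip1 encode subunits of the transcription factor NF-kB and proteins that restrain or redirect it. They were taken by symbol from an RNA table of 11184 genes, and all 10 passed the expression minimum. The cells were primary bone marrow-derived macrophages of C57BL/6 mice, grown from marrow in culture. Unstimulated cells (0 h, M0) were compared with cells given lipopolysaccharide (LPS, 5 ng/ml) plus interferon-gamma (IFNg, 12 ng/ml) for 4, 8, 16 or 24 h, which drives macrophages toward the inflammatory M1 state. In a second arm the cells had the same LPS and IFNg, and lactic acid (LA) followed 4 h later, with RNA taken at 8, 16 and 24 h. Its dose is not given in the labels, and the times of this arm are read as hours after LPS and IFNg. Each of the 8 RNA groups had 4 libraries (32 in all). Peaks of lactylated (H3K18la) and acetylated (H3K18ac) lysine of histone H3 came from M0 and 24 h M1 cells, with 1 library per mark and state.

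NF-kB is a dimer of Rel-family subunits. In resting cells IkB proteins, among them the products of Nfkbia and Nfkbie, hold it in the cytoplasm. LPS, sensed by Toll-like receptors, activates a kinase complex (IKK) that marks IkB for destruction, and the freed dimers enter the nucleus and turn on inflammatory genes. Several of their targets are their own inhibitors, so a wave of NF-kB activity carries its own brake. Nfkb1 and Nfkb2 encode precursors of the small subunits, Rel and Relb encode subunits that activate transcription, and Nfkbiz and Bcl3 encode nuclear IkB-like proteins that act together with subunits at DNA. Tnfaip3 encodes a ubiquitin-editing enzyme that stops signals upstream of IKK, and Tnip1 encodes a ubiquitin-binding partner of it.

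The binding site of NF-kB, the kappa-B site, is itself present upstream of most of these genes. Windows of the 250 bases before each annotated start were read from RefSeq promoters (GRCm38.p6), which matched 7 of the 10 genes. The degenerate kappa-B consensus was searched on both strands, with overlapping matches counted separately. It occurred in 6 of the 7 genes (Nfkb2, Rel, Nfkbia, Nfkbie, Tnfaip3 and Tnip1) and in 5.45% of the 8771 table genes with such a window. Over all 32851 windows of this length the share was 3.9%. The windows of Nfkbia, Tnfaip3, Rel and Tnip1, on which the results turn, and that of Bcl3, which held no match, are shown 5′ to 3′, with kappa-B matches in capitals.
Nfkbia, chr12:55492648-55492897, minus strand: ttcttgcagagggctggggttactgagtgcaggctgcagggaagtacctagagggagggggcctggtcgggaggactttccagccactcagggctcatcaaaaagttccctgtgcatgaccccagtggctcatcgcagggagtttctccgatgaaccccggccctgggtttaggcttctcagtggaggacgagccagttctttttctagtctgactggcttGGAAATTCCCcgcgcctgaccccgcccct
Tnfaip3, chr10:19015411-19015660, minus strand: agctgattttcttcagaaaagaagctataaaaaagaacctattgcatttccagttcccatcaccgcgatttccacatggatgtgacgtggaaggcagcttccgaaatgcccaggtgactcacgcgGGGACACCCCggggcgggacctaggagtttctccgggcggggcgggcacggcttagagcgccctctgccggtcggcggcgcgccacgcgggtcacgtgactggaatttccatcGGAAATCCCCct
Rel, chr11:23770970-23771219, minus strand: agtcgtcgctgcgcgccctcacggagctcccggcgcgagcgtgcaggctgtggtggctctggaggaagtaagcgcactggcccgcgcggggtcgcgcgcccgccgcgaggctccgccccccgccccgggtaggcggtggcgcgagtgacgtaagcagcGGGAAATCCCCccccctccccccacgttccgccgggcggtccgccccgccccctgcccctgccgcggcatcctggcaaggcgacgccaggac
Tnip1, chr11:54962941-54963190, minus strand: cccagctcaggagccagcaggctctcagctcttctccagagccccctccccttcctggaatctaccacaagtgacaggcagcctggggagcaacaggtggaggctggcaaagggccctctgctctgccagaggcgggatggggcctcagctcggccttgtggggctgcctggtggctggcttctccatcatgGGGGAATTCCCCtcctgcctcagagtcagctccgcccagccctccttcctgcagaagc
Bcl3, chr7:19822756-19823005, minus strand: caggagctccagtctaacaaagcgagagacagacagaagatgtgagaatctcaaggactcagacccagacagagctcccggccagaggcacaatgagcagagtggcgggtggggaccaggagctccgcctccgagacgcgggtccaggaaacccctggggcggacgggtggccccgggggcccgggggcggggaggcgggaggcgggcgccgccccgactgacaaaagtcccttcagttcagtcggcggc
The Nfkbia match begins 29 bases before the start (position -29). It was read on the opposite strand. Tnfaip3 held matches at positions -125 and -12 of the start shown, while the window of its other annotated start held none. Rel held overlapping matches at -92 and -91. Tnip1 held 3 overlapping matches at -58, -57 and -56, which lie within 1 palindrome-like stretch. Nfkbie held GGGGGATTCC at -106. Nfkb2, which has 3 annotated starts, held matches before each of them, among them GGGACTTTCC at -225 of its last start. The Bcl3 window held no match of these letters. A match is a description of the sequence, and binding of NF-kB was not measured.

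Reads in listed genes ran from 60.6 to 103.9 M per library. All 8 macrophage markers were listed, with summed levels of 10540 to 54010 RPKM over the groups (reads normalised to gene length and library size), while none of 7 lymphocyte and none of 4 erythroid and mast cell markers was listed. The 5 stromal and endothelial markers summed to at most 3.37 RPKM and the 2 listed of 6 dendritic cell markers to at most 3.17 RPKM. The effective library size over reads in listed genes was 1.324 to 1.342 in the 0 h libraries and 0.756 to 1.058 in all stimulated libraries. Within their groups, 24h replicate 4 (0.856, others of its group 0.966 to 1.021) and LA 24h replicate 1 (0.756, others 0.822 to 0.864) stood apart. Whether the 4 libraries of a group are separate mice or separate cultures is not said in the labels, and the p-values cover the spread between these libraries only. In bulk RNA, fewer cells of a type and less RNA per cell cannot be told apart.

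**Figure D1:**
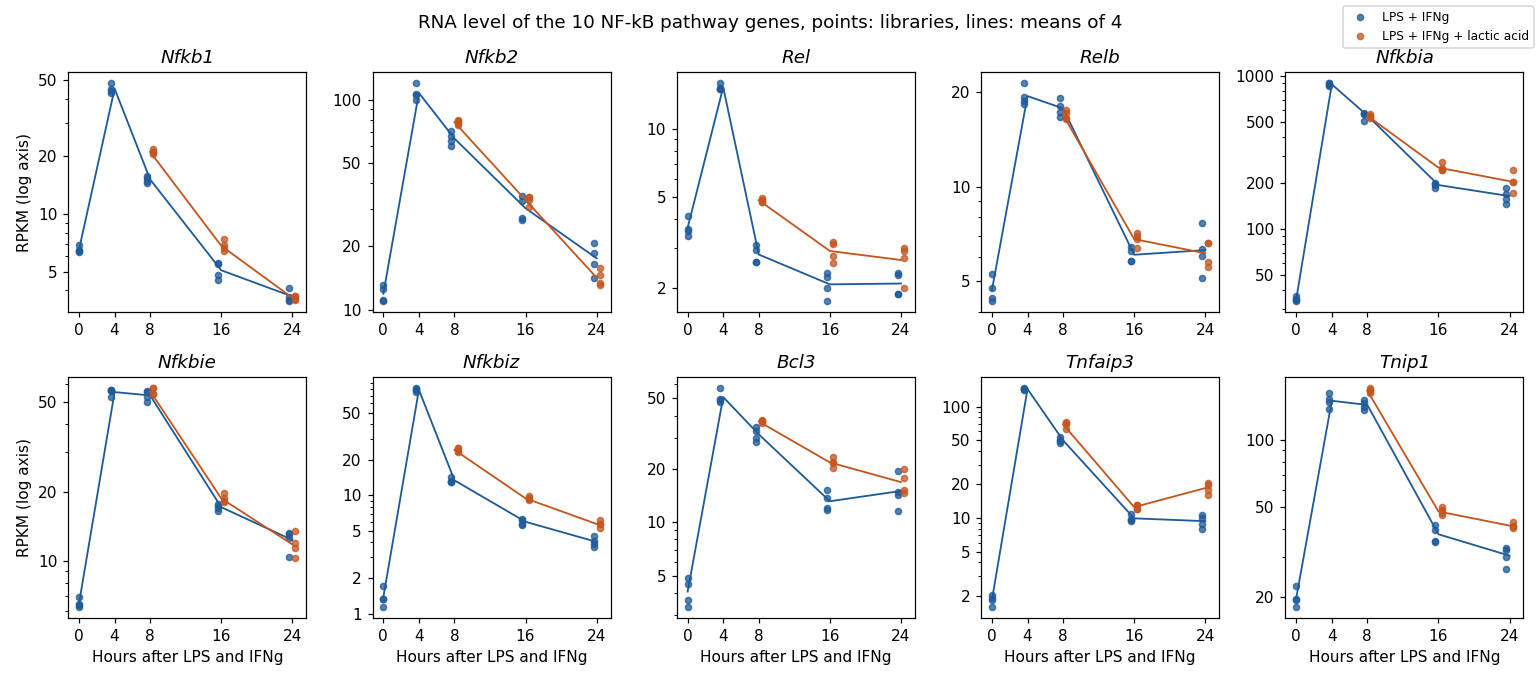
RPKM of each gene (log axis) against hours after LPS and IFNg, with 1 point per library and lines through the means of 4. Every mean in the arm without lactic acid is highest at 4 h, with overlapping 4 h and 8 h libraries in Relb, Nfkbie and Tnip1, and Nfkbia reaches 855.3 to 903.8 RPKM, and Tnfaip3 ends higher with lactic acid (16.1 to 20.8) than without (8.03 to 10.6) at 24 h.

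The comparison of 4 h with 0 h asks how the first hours of LPS and IFNg changed these genes. All 10 rose, by 4.14-fold to 78.0-fold in RPKM, and in each of them every 4 h library lay above every 0 h library. Here and below, the share of all tested genes whose groups lay apart in this way was not counted. Of all 9942 genes tested, 42.5% were higher and 42.7% lower at 4 h (limma, Benjamini-Hochberg adjusted p under 0.05). The members' median log2 fold change was 2.99, against 0.00 over all tested genes. With each library scaled by its reads in listed genes instead (called the total-read scaling here), the median over all genes moved to -0.43, and higher genes made up 26.9% of those called in place of 49.9%. All 10 members still rose, with a median of 2.50.

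Tnfaip3, Nfkbiz and Nfkbia had the largest folds. Tnfaip3 stood at 2.03, 1.83, 1.92 and 1.59 RPKM in the 4 libraries at 0 h and at 142.3, 142.9, 143.6 and 145.9 RPKM at 4 h, a rise of 5.67 on the log2(RPKM + 1) scale (SE 0.07, limma adjusted p = 1.5e-33). All log2 values below are on that scale, which understates changes from low levels. The Tnfaip3 mean went from the second-lowest of the 10, with libraries that overlapped those of Nfkbiz, to the third-highest. Nfkbiz, with the lowest mean at 0 h (1.14, 1.34, 1.70 and 1.34 RPKM), reached 77.6, 80.6, 75.6 and 79.3 RPKM (56.6-fold, log2 fold change 5.06). Nfkbia was already the most abundant at 34.8, 34.7, 33.8 and 36.9 RPKM and rose to 903.8, 903.4, 855.3 and 870.7 RPKM (25.2-fold, log2 fold change 4.62, SE 0.07). The groups did not come near each other in any of these genes.

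Bcl3, Nfkbie and Tnip1 rose by less. Bcl3 went from 4.06 ± 0.702 to 50.8 ± 4.16 RPKM (SD, n = 4), 12.5-fold. Nfkbie rose 8.50-fold, from 6.50 ± 0.285 to 55.3 ± 1.97 RPKM, and Tnip1 rose 7.53-fold, from 19.8 ± 1.78 to 149.0 ± 10.1 RPKM. Tnip1 and Tnfaip3 had overlapping libraries at 4 h although Tnip1 had been far higher at 0 h.

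Among the subunits, the precursors moved more than the transactivating members. Nfkb2 rose from 11.07, 10.94, 12.56 and 13.07 RPKM to 120.2, 99.16, 104.8 and 106.1 RPKM (9.03-fold), and Nfkb1 from 6.34, 6.47, 6.92 and 6.37 RPKM to 48.57, 43.06, 44.23 and 45.16 RPKM (6.93-fold). Rel (4.16-fold, log2 fold change 1.80) and Relb (4.14-fold, 1.84) had the smallest rises of the 10, and at 4 h they were also the lowest in level, at 15.3 ± 0.474 and 19.4 ± 1.39 RPKM.

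Other genes of the pathway, from lists fixed together with the members, rose in part. All 4 other Rel and IkB genes rose at 4 h (median 1.55), led by the inhibitor gene Nfkbib (2.37), Nfkbid (2.26) and Rela, the gene of the main transactivating subunit (0.83). Of 16 other feedback regulators 13 rose and 3 fell (median 1.58), with Tnip3 at 5.35, Traf1 at 4.73 and the RNase gene Zc3h12a at 4.27. The total-read scaling put this list at 10 higher and 5 lower. Of 6 IKK and related kinases 5 rose, with Ikbke at 2.03 and Tbk1 at 1.40, and Map3k14, the kinase of the noncanonical pathway, fell by 1.11. The 15 adaptors and proximal kinases were divided into 6 higher and 6 lower, with Irak2 (3.17), Myd88 (2.93) and Traf2 (2.04) at the front, and the median of -0.02 became -0.41 under the scaling. Of 3 genes of linear ubiquitin assembly 1 rose, Rnf31 (1.98).

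Markers of other cell types moved in the same direction. Of 10 markers of neutrophils and granulocyte precursors 6 were listed and 5 tested, all 5 were higher at 4 h (median 1.44), and their summed level went from 17.0 to 24.9 RPKM at 0 h to 72.3 to 98.3 RPKM at 4 h, 90.1 to 100.5 at 8 h and 31.1 to 43.1 at 24 h. The defining markers Ly6g, Mpo, Elane and Retnlg were not among the listed genes. The 2 listed dendritic cell markers (Ccr7 and Xcr1) summed to 0.0273 to 0.0906 RPKM at 0 h, 2.60 to 3.17 at 4 h and 0.647 to 1.16 at 8 h. The 5 stromal and endothelial markers summed to 0.317 to 0.583 RPKM at 0 h and 1.90 to 2.51 at 4 h. Of the 8 macrophage markers, by contrast, 2 were higher and 5 lower at 4 h (median -0.47). Their summed level was 17910 to 20400 RPKM at 0 h, 13480 to 14540 at 4 h and 36140 to 48400 at 24 h. The part of all these markers in the members' levels was not tested.

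After 4 h all members declined, but at 8 h they had split. Between 4 h and 8 h 7 members fell, none rose, and 3 did not pass the test, against 36.9% of all tested genes lower and 34.8% higher. Relative to the 4 h mean, Nfkbiz kept 17.1%, Rel 18.3%, Nfkb1 33.5% and Tnfaip3 34.6%. Nfkb2 (60.7%), Bcl3 (61.7%) and Nfkbia (62.5%) fell less. Relb (91.4%, adjusted p = 0.14), Tnip1 (95.8%, adjusted p = 0.42) and Nfkbie (96.7%, adjusted p = 0.51) did not pass, and their 4 h and 8 h libraries overlapped.

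Single libraries show how sharp this split was. Rel dropped from 15.04, 15.97, 15.08 and 14.96 RPKM at 4 h to 2.92, 3.09, 2.59 and 2.59 RPKM at 8 h, which is below each of its 0 h libraries (3.36 to 4.15). Nfkbiz dropped to 14.35, 13.11, 13.35 and 12.87 RPKM. Tnip1, by contrast, stood at 161.0, 136.6, 147.0 and 151.4 RPKM at 4 h and at 150.9, 135.2, 145.5 and 139.5 RPKM at 8 h, and Nfkbie at 56.3, 56.6, 52.4 and 55.8 against 55.8, 50.1, 55.6 and 52.4 RPKM. For Nfkbie the 95% interval of the log2 change was -0.18 to 0.09, and for Tnip1 it was -0.20 to 0.08.

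The genes that had held at 8 h fell later. From 8 h to 16 h all 10 members were lower (median log2 fold change -1.41), against 34.2% of tested genes lower and 36.1% higher. Tnip1 fell to 26.6% of its 8 h mean (142.8 ± 6.88 to 38.0 ± 3.22 RPKM), Nfkbie to 32.2% and Relb to 34.2%. Tnfaip3 went on from 49.8 ± 2.71 to 9.93 ± 0.724 RPKM, the largest change of the step (-2.22 on the log2 scale, SE 0.07), while Rel, already low, moved least (-0.31, SE 0.08). No member's 8 h and 16 h libraries overlapped, but the share of all tested genes lying apart was again not counted, so this is not read as a trait of the members.

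From 16 h to 24 h 6 members fell further and none rose, against 23.3% of tested genes lower and 24.1% higher. The total-read scaling left that count at 6 but put higher genes at 33.1% of all those called in place of 50.9%. Nfkb2 changed most, from 32.86, 27.22, 26.81 and 34.62 RPKM to 16.55, 14.19, 18.61 and 20.85 RPKM (-0.76, SE 0.09). Nfkbiz (-0.47), Nfkbie (-0.45), Nfkb1 (-0.37), Tnip1 (-0.31) and Nfkbia (-0.24) also fell, Nfkbia not when only these 2 groups were fitted (adjusted p = 0.068). Rel (0.01), Relb (0.03), Tnfaip3 (-0.08) and Bcl3 (0.17) did not pass, though Bcl3 passed as higher without 24h replicate 2 (0.28, adjusted p = 0.035). At 24 h all 10 members were below their 4 h level, by a median of -2.41 on the log2 scale, against 41.3% of tested genes lower and 42.3% higher. Nfkbiz (5.17%), Tnfaip3 (6.52%) and Nfkb1 (8.18%) kept the smallest shares of their 4 h mean, and Relb (32.4%) and Bcl3 (29.5%) the largest.

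**Figure D2:**
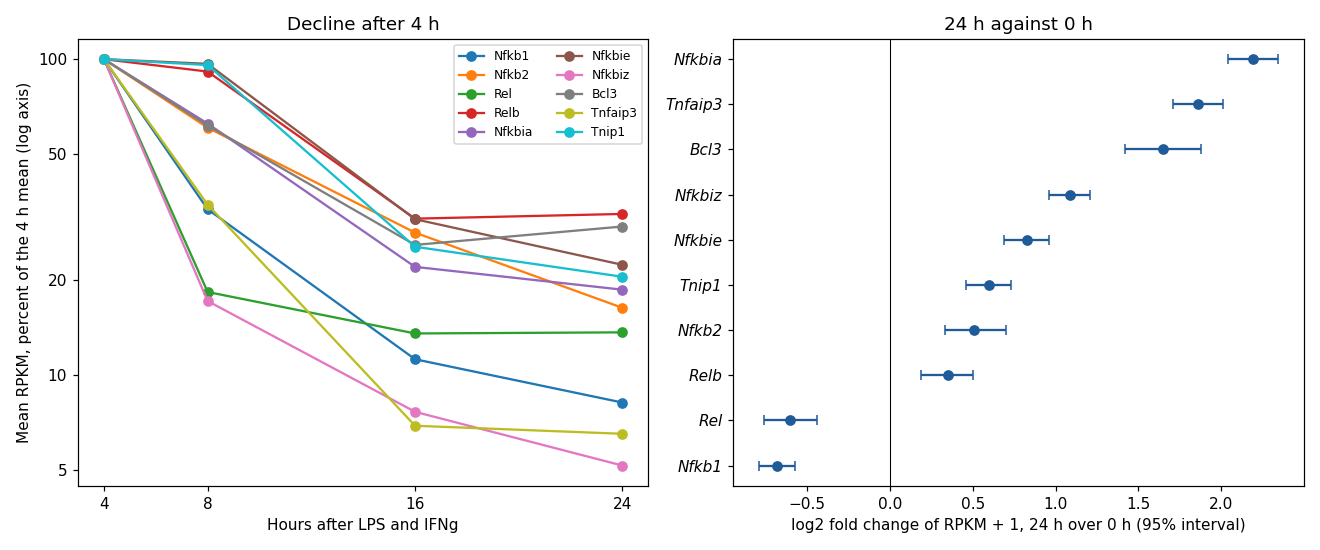
Left, mean RPKM of each gene as a percent of its 4 h mean (log axis) at 4, 8, 16 and 24 h. Right, log2 fold change of RPKM + 1 at 24 h over 0 h with 95% intervals. Relb, Tnip1 and Nfkbie lie above 90% at 8 h, and only Nfkb1 and Rel lie below 0 at 24 h, where the total-read scaling also puts Relb below 0.

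The comparison of 24 h with 0 h covers the 2 states in which the histone marks were mapped. The inhibitors stayed up and the subunits Nfkb1 and Rel ended below their resting level. Of the members 8 were higher and 2 lower (median 0.71), against 39.9% of tested genes higher and 37.3% lower. Nfkb1 went from 6.34, 6.47, 6.92 and 6.37 RPKM at 0 h to 3.66, 3.49, 4.10 and 3.56 RPKM at 24 h (-0.68, SE 0.05, limma adjusted p = 1.5e-12). Rel went from 3.36, 3.56, 4.15 and 3.62 RPKM to 2.33, 1.87, 2.27 and 1.87 RPKM (-0.60, SE 0.08). Both were at 0.567 of their 0 h mean, and no library of one time overlapped the other.

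Nfkbia remained 4.70-fold above rest, at 146.7, 168.8, 157.8 and 185.0 RPKM, and Tnfaip3 5.08-fold, at 10.64, 8.03, 9.91 and 8.86 RPKM. Bcl3 stayed at 3.70-fold and Nfkbiz at 2.93-fold. Nfkbie (1.90-fold), Tnip1 (1.54-fold), Nfkb2 (1.47-fold) and Relb (1.34-fold, libraries overlapping) were closer to rest. Under the total-read scaling the median over all genes moved to -0.37, higher genes made up 20.4% of those called in place of 51.6%, and 5 members were higher and 2 lower (median 0.27). Nfkb2 (0.06) and Tnip1 (0.14) then no longer passed and Relb turned to -0.06, also not past the threshold, while Nfkbia, Tnfaip3, Bcl3, Nfkbiz and Nfkbie (0.40) remained higher. Nfkb1 (-1.10) and Rel (-0.98) were further below 0 h under this scaling.

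Of the pathway lists at 24 h, 12 of 16 other feedback regulators were higher and 2 lower than at 0 h (median 0.43), with Traf1 at 2.14, Tnip3 at 1.45 and the kinase-like inhibitor gene Irak3 at 1.42. Under the scaling they stood at 7 higher and 7 lower. Of the IKK group 4 of 6 were higher (Ikbkg 0.57, Ikbke 0.51, Tbk1 0.34) and none lower, but 0 higher and 2 lower under the scaling. Of the adaptors 5 were higher and 9 lower, with Irak2 at 0.93, Ripk1 at -0.73 and Traf2 at 0.65. Rela ended below rest (-0.28) like Nfkb1 and Rel, and Nfkbid above it (0.33). In linear ubiquitin assembly 2 of 3 were higher and 1 lower (Rnf31 0.42, Rbck1 -0.26, Sharpin 0.20), or 0 higher and 2 lower under the scaling.

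Nfkbia had the highest level of the 10 in all 8 groups with no overlap with the next gene. Tnip1 had the next highest mean in all of them, but at 4 h its libraries overlapped those of Tnfaip3. Rel was the lowest in every stimulated group. Elsewhere several neighbours could not be ordered, as their libraries overlapped. Among them at 0 h were Nfkb1 and Nfkbie, then Relb, Bcl3 and Rel, and at the low end Tnfaip3 and Nfkbiz. Others were Nfkbie, Bcl3 and Nfkb1 at 4 h, and Nfkb2, Bcl3, Nfkbie and Tnfaip3 at 24 h.

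The course of each member over the 8 group means was compared with those of 4620 other genes of sufficient level, as a description with no test. Relb ran closest to Fam102b (Pearson r = 0.9992), Malt1, which encodes a signalling protease of the NF-kB pathway (0.9961), and Slc28a2 (0.9958). Nfkbia ran closest to the interferon-inducible genes Ifi205 (0.9967) and Ifi211 (0.9961) and to Traf1 (0.9957). Nfkbiz was followed by Ppp1r15b (0.9936), the chemokine gene Ccl3 (0.985) and Jak2 (0.9844), and Tnip1 by Dync1i2 (0.9928), the inhibitor gene Nfkbib (0.991) and Adora2b (0.9909). The nearest genes to the others were Clint1 for Nfkb1 (0.9975), Coa5 for Nfkb2 (0.9936), Tab2, which encodes an adaptor of the same pathway, for Rel (0.9875), Vasp for Nfkbie (0.998), Pafah1b1 for Bcl3 (0.9935) and Mtpn for Tnfaip3 (0.9945). Among the members themselves r ran from 0.50 for Rel with Nfkbia to 0.99 for Nfkbie with Tnip1 and for Nfkbia with Bcl3. With 8 means that share the same libraries and a common peak at 4 h, high values are frequent.

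Lactic acid against none asks whether its addition at 4 h changed the decline. At 8 h 6 members were higher with it and none lower, against 32.1% of tested genes higher and 36% lower (median 0.25). Nfkbiz stood at 23.58, 25.14, 23.08 and 25.43 RPKM with lactic acid and at 14.35, 13.11, 13.35 and 12.87 RPKM without (0.81, SE 0.06, limma adjusted p = 8.1e-12). Rel stood at 4.88, 4.77, 4.78 and 4.97 RPKM against 2.92, 3.09, 2.59 and 2.59 RPKM (0.63, SE 0.08). Every library with lactic acid lay above every library without in both genes.

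Tnfaip3 was also higher at 8 h, at 71.50, 70.24, 63.08 and 72.61 RPKM against 53.43, 48.87, 49.72 and 46.99 RPKM (0.47, SE 0.07, or 0.30 with the dependence of the libraries on gene length removed). Nfkb1 stood at 21.1 ± 0.465 against 15.2 ± 0.632 RPKM (0.46, SE 0.05), or 0.17 with that length trend removed. Nfkb2 (0.26) and Tnip1 (0.21) were higher by less. Relb (-0.06), Nfkbia (0.00, 95% interval -0.15 to 0.15) and Nfkbie (0.06) did not pass, though Nfkbie did under the total-read scaling (0.15) and with the length trend removed (0.22). Nfkbia then stood at 550.7 ± 13.9 RPKM with lactic acid and 552.4 ± 31.8 without, but with the length trend removed it passed as higher (0.29). Bcl3 missed the threshold (0.24, adjusted p = 0.056) and passed in 5 of its 16 alternatives, among them without 8h replicate 1 (0.28, adjusted p = 0.038).

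The change from 4 h to 8 h without lactic acid and the lactic acid effect at 8 h share the 8 h libraries, so they are given side by side only. The log2 changes from 4 h to 8 h were -2.46 for Nfkbiz, -2.10 for Rel, -1.52 for Nfkb1 and -1.51 for Tnfaip3, and their lactic acid effects at 8 h were 0.81, 0.63, 0.46 and 0.47. In Nfkb2, Bcl3 and Nfkbia the changes were -0.71, -0.68 and -0.68, and the effects 0.26, 0.24 and 0.00. In Nfkbie, Tnip1 and Relb the changes were -0.05, -0.06 and -0.12, and the effects 0.06, 0.21 and -0.06. With lactic acid, Nfkbiz kept 31.1% and Rel 31.8% of the 4 h mean at 8 h.

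At 16 h 7 members were higher with lactic acid and none lower, against 30.2% of tested genes higher and 31% lower (median 0.34). Bcl3 now had the largest difference, with 23.41, 20.19, 21.88 and 21.54 RPKM against 13.69, 11.68, 12.00 and 15.14 RPKM (0.69, SE 0.11, limma adjusted p = 4.7e-06). Nfkbia, with no difference past the threshold at 8 h, stood at 244.6, 249.5, 272.9 and 243.4 RPKM against 199.8, 193.9, 186.4 and 197.3 RPKM (0.38, SE 0.07). The groups did not overlap in either gene. Nfkbiz (0.58), Nfkb1 (0.37), Rel (0.35), Tnip1 (0.33) and Tnfaip3 (0.31) were also higher. With the length trend removed Nfkb1 was at 0.19, Rel at 0.23 and Tnfaip3 at 0.20, all still past the threshold. Relb (0.14), Nfkb2 (0.13) and Nfkbie (0.12) did not pass. Relb and Nfkbie did pass when only these groups were fitted (adjusted p = 0.035 and 0.047) and under the scaling.

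At 24 h 5 members were higher with lactic acid and 1 lower, against 25.5% of tested genes higher and 21.7% lower (median 0.20). Tnfaip3 stood at 16.08, 20.76, 17.71 and 19.68 RPKM with lactic acid and at 10.64, 8.03, 9.91 and 8.86 RPKM without, 1.98-fold higher (0.92, SE 0.07, limma adjusted p = 2.3e-11), and the groups did not overlap. In the lactic acid arm its 24 h libraries also lay above its 16 h libraries (11.92 to 13.15 RPKM), a step not tested, while without lactic acid the 2 times overlapped. Tnip1, its partner, stood at 41.17, 41.20, 43.05 and 40.61 RPKM against 32.39, 26.57, 29.94 and 33.09 RPKM (0.44, SE 0.07), and Nfkbiz at 5.71, 5.32, 5.70 and 6.21 RPKM against 3.92, 4.10, 4.51 and 3.64 RPKM (0.42). These were the 3 members whose groups did not overlap, and the 3 called higher both when only the 24 h groups were fitted and under the total-read scaling, which put Tnip1 at 0.23 and Nfkbiz at 0.24.

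Nfkbia (0.32, 206.1 ± 29.1 against 164.6 ± 16.3 RPKM), Rel (0.24) and, in the other direction, Nfkb2 (-0.28, 14.2 ± 1.26 against 17.6 ± 2.84 RPKM) were called with overlapping libraries. Under that scaling Nfkb2 was at -0.47. Fitting only these 2 groups ended all 3 calls (adjusted p = 0.079, 0.11 and 0.10). Nfkb2 was also lost without 24h replicate 4, one of the libraries that stood apart (-0.20, adjusted p = 0.06), Rel without LA 24h replicate 4 (0.19, adjusted p = 0.051), and both Nfkbia (0.11) and Rel (0.09) under the scaling. Nfkb1 (-0.02), Relb (-0.02), Nfkbie (-0.06) and Bcl3 (0.17) did not pass, and Bcl3 passed without 24h replicate 4 (0.30, adjusted p = 0.016). Leaving out LA 24h replicate 1, the other library that stood apart, changed no member's call in this comparison. Under the total-read scaling the median over all genes moved to -0.15, higher genes made up 18.3% of those called in place of 54%, and the members stood at 3 higher and 4 lower (Nfkb1, Nfkb2, Relb and Nfkbie) with a median of 0.03.

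**Figure D3:**
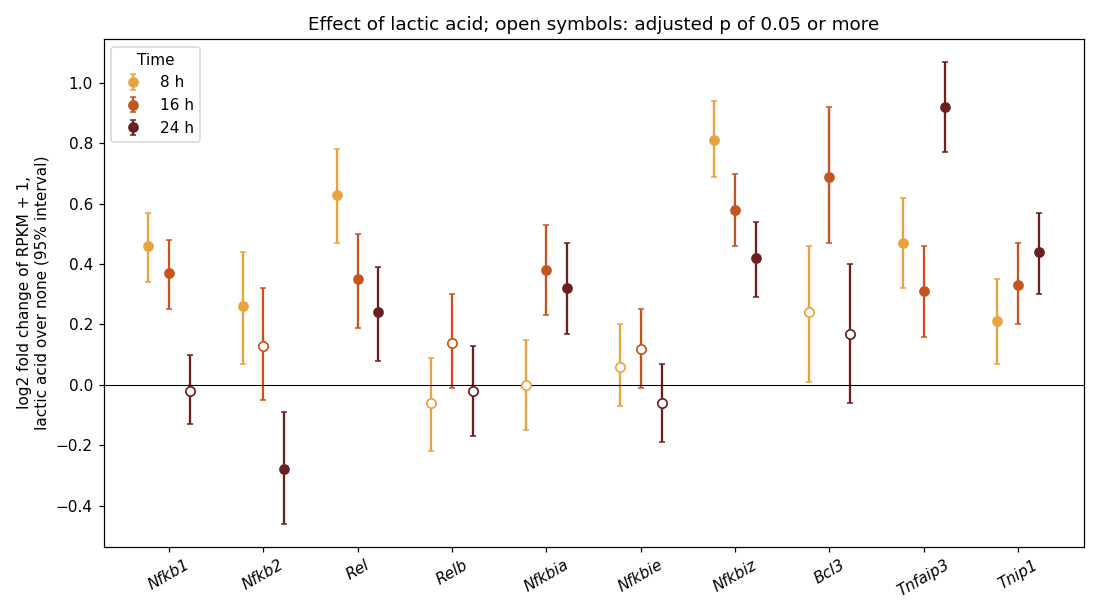
Log2 fold change of RPKM + 1 with lactic acid over none at 8, 16 and 24 h, with 95% intervals; open symbols did not pass an adjusted p of 0.05. The effect is largest at 8 h for Nfkbiz and Rel (0.81 and 0.63) and at 24 h for Tnfaip3 (0.92).

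The difference between the lactic acid effects at 24 h and 8 h was tested directly. It was negative for Nfkb2 (-0.53, SE 0.13), Nfkb1 (-0.47, SE 0.08), Rel (-0.39, SE 0.11) and Nfkbiz (-0.39, SE 0.09), so 3 of the 4 subunits had a smaller or opposite effect at 24 h. It was positive for Tnfaip3 (0.45, SE 0.10, limma adjusted p = 0.00045), Nfkbia (0.32, SE 0.10) and Tnip1 (0.23, SE 0.09, adjusted p = 0.036). Of all tested genes 32.7% had a positive and 29.7% a negative difference past the threshold. With the length trend removed Nfkb1 was at -0.17 and Rel at -0.20. The total-read scaling, under which the median over all genes was -0.20 and positive differences made up 26% of those called in place of 52.4%, ended the calls of Tnfaip3 (0.16, adjusted p = 0.29) and Nfkbia (0.02) and turned Tnip1 to -0.07. Under it Nfkb2 (-0.82), Nfkb1 (-0.72), Nfkbiz (-0.66) and Rel (-0.61) lay further below 0. Tnip1 was lost in 9 of 24 alternatives. Of these, 7 left out 1 library, which was 8h replicate 1 or 3, 24h replicate 2 or 3, LA 8h replicate 3 or 4, or LA 24h replicate 3 (0.16 to 0.22, adjusted p = 0.053 to 0.11). Nfkbia turned to -0.05 with the length trend removed. Nfkbie (-0.12), Bcl3 (-0.07) and Relb (0.04) did not pass, but Nfkbie passed under the total-read scaling (-0.40, adjusted p = 0.00019), with the length trend removed (-0.32, adjusted p = 0.0017) and without 24h replicate 1 (-0.20, adjusted p = 0.044). Bcl3 passed under the total-read scaling (-0.35, adjusted p = 0.036). The members thus stood at 3 positive and 4 negative, at 0 and 6 under the total-read scaling and at 1 and 5 with the length trend removed.

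Mitochondrially encoded transcripts, often read as a sign of RNA quality, also differed between these groups. Of 7 listed, 5 were higher with lactic acid at 8 h (summed 1864 to 2245 against 1045 to 1220 RPKM), 5 at 16 h (1805 to 2177 against 1167 to 1438 RPKM), and 5 lower at 24 h (954.3 to 1795 against 1338 to 1609 RPKM). Neutrophil markers were lower with lactic acid in 3 of 5 tested at 8 h and at 16 h, where 1 was higher, and in 1 at 24 h. The summed stromal and endothelial markers were higher with lactic acid with no overlap at 8 h (2.63 to 3.37 against 1.42 to 1.64 RPKM), 16 h (1.05 to 1.63 against 0.513 to 0.924 RPKM) and 24 h (0.605 to 0.999 against 0.358 to 0.499 RPKM). The summed macrophage markers were lower with it at 8 h (10540 to 11150 against 13830 to 15890 RPKM) and 16 h (17080 to 21300 against 22670 to 33120 RPKM). Counted singly, 3 of these 8 markers were higher and 3 lower at 8 h (median 0.09). At 16 h 2 were higher and 2 lower (median -0.02). The part of all these in the members' differences was not tested.

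The wider pathway under lactic acid was mixed. Of the adaptors and proximal kinases 7 were higher and 2 lower at 8 h (Traf3 0.72, Tab3 and Ticam1 both 0.52), 7 and 1 at 16 h (Traf6 0.56, Irak2 0.54, Ticam1 0.52), and 8 and 2 at 24 h (Irak2 0.91, Ticam1 0.82, Traf6 0.68), or 4 and 6 at 24 h under the scaling. Other feedback regulators stood at 7 higher and 4 lower at 8 h (the deubiquitinase gene Otud7b 0.71, Pdlim2 -0.66, Zc3h12a 0.58), at 7 and 3 at 16 h (Zc3h12a 0.53, Otud7b 0.43, N4bp1 0.42), and at 6 and 0 at 24 h (Traf1 0.64, Birc3 0.55, Sqstm1 0.46), the last becoming 4 and 4 under the scaling. Of the other Rel and IkB genes 2, 3 and 3 of 4 were higher at 8, 16 and 24 h and none lower. Rela was among them at 8 h (0.38) and 16 h (0.50), and Nfkbib at 16 h (0.36) and 24 h (0.66). Of the IKK group 3 were higher and 3 lower at 8 h (Ikbkg -0.51, Map3k14 0.35, Chuk 0.33), 1 and 2 at 16 h (Map3k14 0.35), and 1 and 3 at 24 h (Ikbke -0.58, Tbk1 0.29, Chuk -0.17), with 0 and 4 at 24 h under the scaling. Rnf31 was the 1 gene of linear ubiquitin assembly called, higher at all 3 times (0.50, 0.64 and 0.24), and at 24 h 0 were higher and 1 lower under the scaling.

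H3K18 acetylation and lactylation mark active promoters and enhancers. Their peaks, called by the authors in each library, give position and width but no replicate error, so nothing here was tested. All 10 members had a peak of each mark over the gene or within 5 kb of it in both states, and so did most genes: 94.1% (M0) and 80.9% (M1) for H3K18la and 96.1% and 94.6% for H3K18ac. Within 5 kb of a start site the counts were 7 of 7 members in all 4 lists, against 91.1%, 75.2%, 93.7% and 91% of table genes with a start. Presence of a peak therefore says little about these genes.

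Width set 4 of the members apart from the other 6. None of the 4 encodes a subunit. Besides the subunits, the other 6 include Nfkbie and Nfkbiz, which encode an IkB and an IkB-like protein. Their widest M1 H3K18ac peaks were 4343 and 4706 bp. In M1, H3K18ac peaks of at least 20 kb, a bound chosen after the widths were seen, overlapped Nfkbia, Tnfaip3, Bcl3 and Tnip1, against 4.19% of 10815 genes with a position. In M0 no member had one, against 2% of genes. Of all H3K18ac peaks, 1.56% in M1 and 0.868% in M0 were at least 20 kb wide. With 1 library per state, the widths carry no measure of spread. The Nfkbia peak was 5940 bp wide in M0 and 38132 bp in M1 (chr12:55456813-55494944, mm10). The M1 peak ran from 2.3 kb before the gene to 35.8 kb after its start, although the gene spans only 3239 bp. At Tnfaip3 the M0 library had 5 separate peaks of at most 4595 bp over the gene and its flanks, and the M1 library 1 peak of 36214 bp (chr10:18986293-19022506) that covered the whole gene. No other protein-coding gene of the annotation lay under either of them.

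Bcl3 went from 4 H3K18ac peaks of at most 3661 bp to one of 21160 bp (chr7:19812903-19834062) that began 11.2 kb before the gene, with a smaller one behind it, and the covered share of the gene went from 26.2% to 69.1%. Tnip1 was acetylated broadly already in M0 (widest peak 13020 bp, 38.4% of the gene covered). In M1 it had wide peaks of 24411 bp (chr11:54920789-54945199) and 21334 bp (chr11:54946366-54967699) and 82.5% coverage. The fold enrichments of the widest M1 peaks, the authors' values over the caller's background, were 6.24 for Nfkbia, 6.16 for Tnfaip3, 7.16 for Bcl3 and 6.51 for Tnip1. The second wide Tnip1 peak had 4.33, and the median over all M1 H3K18ac peaks was 3.56. The highest M1 H3K18ac values of the other 6 members ran from 4.94 (Nfkbie) to 6.89 (Nfkbiz), so enrichment did not set the 4 apart.

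H3K18la peaks were narrower. At Tnfaip3 the widest was 1973 bp in M0 and 8369 bp in M1. M0 had separate peaks at the start and inside the gene, where 1 M1 peak spanned both. The covered share of the gene was 21.8% in M0 and 50.7% in M1. At Nfkbia the widest was 2640 bp in M0 and 6366 bp in M1, and the M1 peak covered 100% of the gene. A gain in width as large as these was found in few genes: 0.453% of genes had a larger one than Tnfaip3 and 1.26% a larger one than Nfkbia. Tnip1 held an H3K18la peak 25.3 to 30.1 kb inside the gene in M1, of 4856 bp with a fold enrichment of 6.73, and an overlapping one of 3627 bp with 3.9 in M0. Enrichments of separate lists have different medians (5.41 in M0 and 4.16 in M1 for H3K18la), so this pair shows no measured change.

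The other 6 genes had no H3K18ac peak of 20 kb. Their widest in M1 were 3165 bp at Nfkb2, 3291 bp at Relb, 4343 bp at Nfkbie, 4706 bp at Nfkbiz, 5176 bp at Rel and 8269 bp at Nfkb1, where the widest had been 10134 bp in M0. Over all M1 H3K18ac peaks the median width was 1640 bp. The widest at Relb had been 1734 bp in M0. Rel, lower at 24 h than at 0 h, kept a peak of both marks at its start in both states, with an H3K18la peak of 2810 bp in M0 and 2590 bp in M1. Nfkb1, the other gene below rest, had 6 H3K18la peaks in M0 and 3 in M1 over the gene and its flanks, and 10 and 11 H3K18ac peaks. Its widest H3K18la peak went from 1953 to 3927 bp, a gain that 3.09% of genes exceeded. Near Relb a narrow peak of both marks lay outside the gene, beyond its lower end (chr7:19603900-19604568 for H3K18ac in M0). Of the peaks over Relb or within 5 kb of it, this one had the highest enrichment in all 4 libraries. Whether it belongs to a neighbouring gene was not examined. The libraries had 21.8 M (M0) and 21.0 M (M1) mouse reads for H3K18la and 36.6 M and 32.9 M for H3K18ac, with fewer spike-in reads in M1 than in M0 for H3K18la (141688 against 310066).

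**Figure D4:**
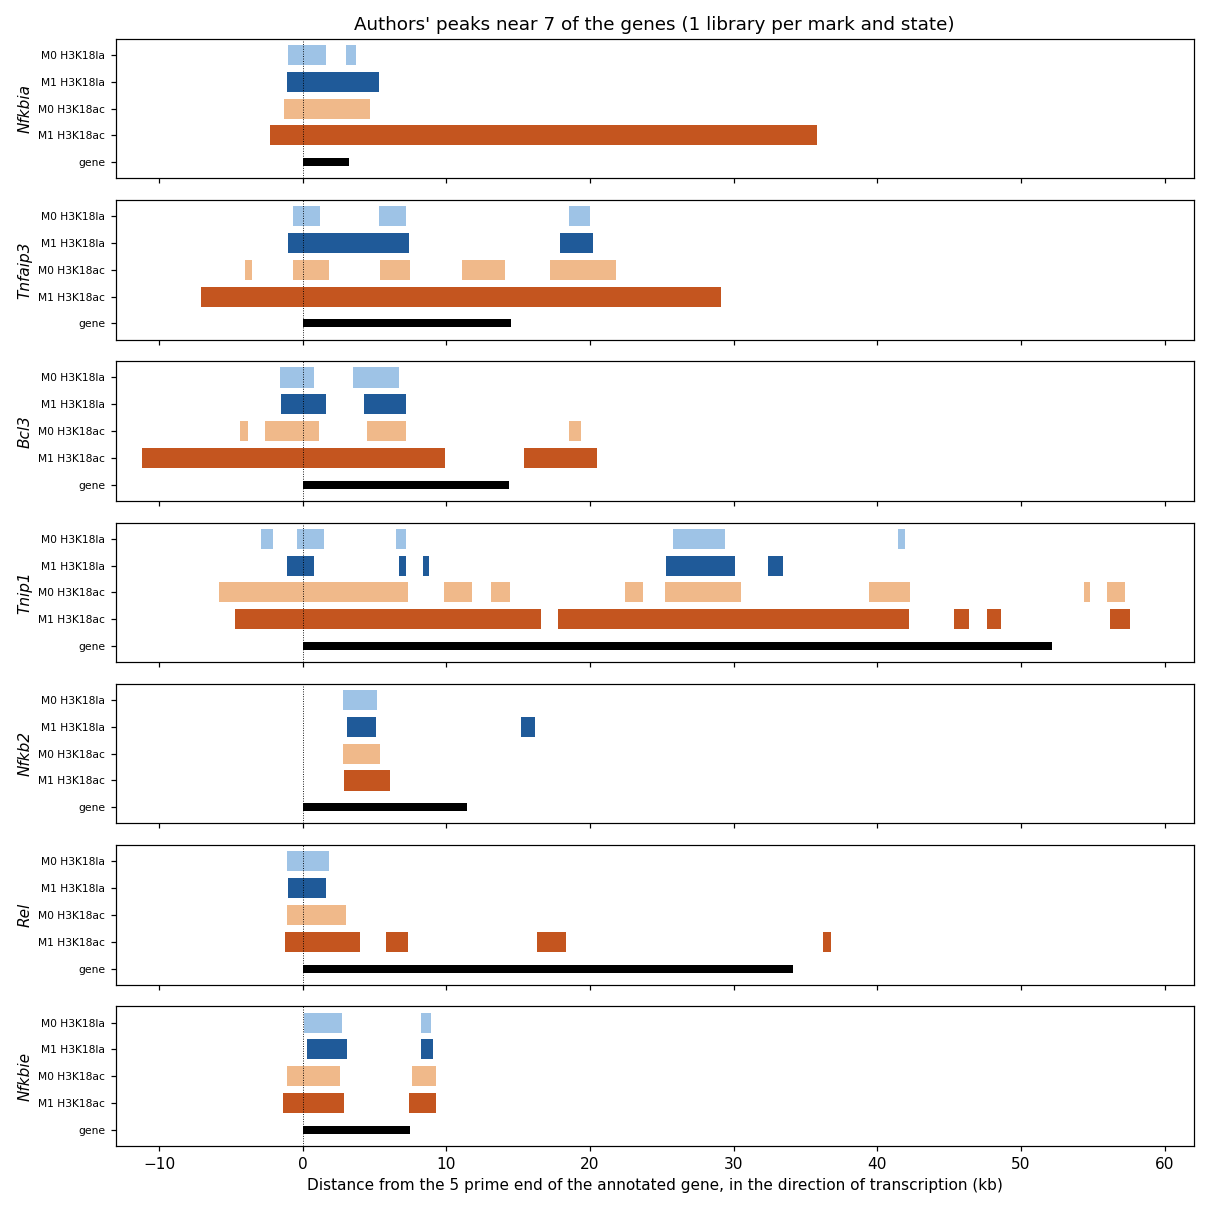
Authors' peaks near 7 of the genes, as distance in kb from the 5′ end of the annotated gene in the direction of transcription, with 1 bar per peak, 1 library per row and the gene in black. In M1 the H3K18ac bars of Nfkbia, Tnfaip3, Bcl3 and Tnip1 reach 21.2 to 38.1 kb, while none of Nfkb2, Rel or Nfkbie is wider than 5.2 kb.

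Set beside the RNA, the 4 genes with wide M1 acetylation were at 4.70-fold (Nfkbia), 5.08-fold (Tnfaip3), 3.70-fold (Bcl3) and 1.54-fold (Tnip1) of their 0 h level at 24 h. The other 6 lay between 0.567-fold (Nfkb1 and Rel) and 2.93-fold (Nfkbiz). This is a description over 10 genes chosen as a pathway, with 1 library per mark and state, and no relation was tested.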

How the data were processed

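RNA values are RPKM deposited by the authors. The same deposited table holds the authors' log2 fold changes and p-values, not used as results here. Peak lists hold the authors' fold enrichment (a ratio), -log10 p and q and score. The deposited spike-in table gives read counts and a ratio. Per the submitters' processing notes, HISAT2 2.1.0, featureCounts 1.5.0-p1, edgeR, Bowtie2 2.2.6, SAMtools 0.1.19 and MACS2 2.2.1 were among the tools, with build mm10 (GRCm38). The threshold and control of the peak calls are not given in the sources used here.

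The test was limma-trend (limma 3.58.1, R 4.3.3) on log2(RPKM + 1), with 32 libraries in 1 model of 8 group means (24 residual degrees of freedom). A gene needed 1 RPKM or more in 4 or more libraries, which 9942 met and 1242 did not. P-values were Benjamini-Hochberg adjusted over these and called under 0.05. The fit was tested on simulated data. The members and the gene lists were chosen with earlier results of these data known. Named pathway genes are up to 3 called genes per list with the largest change; likeness used the 3 nearest genes. Whole reads were recovered from the RPKM: 100.0% of values came out within 0.05 of a whole read, against 10.1% with the library sizes set slightly off. They served edgeR 4.0.16 and DESeq2 1.42.0 as alternatives, besides another pseudocount, no filter, only the groups compared, a replicate block, total-read scaling, removal of the length trend and leaving out each library. Promoters and gene positions are RefSeq, GRCm38.p6.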

Additional observations from a re-analysis of the deposited data

Results flagged for a closer look

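The effect of lactic acid differed between 24 h and 8 h, by the test of the difference itself, in 7 of the 10 genes. The difference of log2 fold changes (24 h minus 8 h) was -0.47 for Nfkb1, -0.53 for Nfkb2, -0.39 for Rel, -0.39 for Nfkbiz, 0.32 for Nfkbia, 0.45 for Tnfaip3 and 0.23 for Tnip1. The positive ones did not pass under the total-read scaling, and the negative ones then ran from -0.61 (Rel) to -0.82 (Nfkb2). With the length trend removed Nfkb1 was at -0.17 and Rel at -0.20.

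In 2 of 80 groups of 4 libraries, 1 library lay far from the other 3, where chance alone gives such a gap in about 1 of 20 groups. Rel at 4 h had 15.97 RPKM in replicate 2, with the others at 14.96 to 15.08 RPKM. Bcl3 at 4 h had 57.01 RPKM in replicate 1, with the others at 47.98 to 49.41 RPKM. Leaving out either library changed neither gene's call against 0 h.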

How the results depend on the processing

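Of the alternatives, edgeR and DESeq2 on recovered reads changed none of 200 gene values in direction or call, and leaving out 1 library changed 13 of 880. The total-read scaling changed 17 of 100, removal of the length trend 7 of 100, and fitting only the groups compared 7 of 100. Among called values, and values called under the alternative, the direction turned for Relb at 24 h against 0 h (-0.06) and the Tnip1 lactic acid difference (-0.07), both under the total-read scaling, and for Nfkbia with lactic acid at 8 h (0.29) and in the difference (-0.05), both with the length trend removed. Some values that passed in neither fit also changed sign, such as the Relb lactic acid difference (-0.22 under the total-read scaling). With only the 24 h groups fitted, 3 members were called with lactic acid in place of 6, while over all genes 1256 were higher and 1001 lower in place of 2532 and 2153. The cause was not tested. Replicate numbers showed no clear pairing of the libraries. After removal of the group means, same-numbered pairs had a median correlation of 0.03 (-0.64 to 0.54). Pairs of different number and group had -0.01 (-0.67 to 0.67). Of 112 same-numbered pairs 41 correlated above 0.1, a share not counted for the other pairs. In all, 11 of 32 libraries correlated best with their own number. With the replicate block the members called with lactic acid at 8 h numbered 7 in place of 6, through Bcl3 (0.24, adjusted p = 0.034), and no other call of a member changed. The peaks have no replicate, and with a -log10 q of at least 5, 6 of 7 members kept an M1 H3K18la peak near the start. The share of all genes at that bound is not given here, so the count is not read as a trait of the members.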
